A study of Mus musculus with 16 samples.

Results

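Fam159b, Slco2b1, Gng2, Klhl30, Foxh1 and Pdzk1ip1 are 6 of the 793 genes in the authors' deposited table of genes that differ between Nan/+ and wild-type mouse fetal liver. They were chosen by the FPKM levels of that table (fragments per kilobase of transcript, corrected for library size), as genes with little RNA in wild type and steeply more in Nan/+, so their liver levels are given as a description, with no test. The label of newly expressed genes holds for only part of them: 3 of the 6 (Fam159b, Klhl30 and Slco2b1) lay at or under 1 FPKM in wild type, while Foxh1, Gng2 and Pdzk1ip1 were already present. They are therefore called the 6 steep genes below. The study compared Nan/+ livers (genotype Klf1Nan/+) with +/+ livers at embryonic day 14.5, 3 samples each, by sequencing polyadenylated RNA after removal of globin RNA. It also used K1 cells, which are KLF1 null erythroblasts, so every cell line here lacks endogenous KLF1. K1-ER and K1-NanER are K1 clones that carry KLF1-ER or Nan-KLF1-ER, fusions that 4-hydroxytamoxifen (200 nM) activates. RNA labelled for 1 h with 500 uM 4-thiouridine (4sU) was sequenced from 2 samples each of K1-ER (clones A and C), K1-NanER (clones B and X) and parental K1, and KLF1 antibody chromatin immunoprecipitation (ChIP) after 3 h of tamoxifen was sequenced as 1 library per fusion, from 3 pooled replicates, beside 1 input library. The labels list 200 nM tamoxifen for all of the 4sU samples, parental K1 included.

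KLF1 is the erythroid Kruppel-like factor: its zinc fingers bind CACCC and related GC-rich elements, and it activates globin, heme and red cell membrane genes. Nan is a missense mutation in those zinc fingers that changes which DNA sequences the factor recognises, and mice with 1 Nan allele are anaemic. In fetal liver at this stage most cells are erythroid.

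The question of whether Nan-KLF1 binds the 6 genes was read from the authors' peak lists, which give a nearest gene and a central motif of 8 bases for each peak. The 2 lists differ in how often each motif occurs, so the motifs of the peaks labelled with a steep gene are printed here. Capitals mark bases that differ from ccccgccc, the most frequent motif of the Nan-KLF1 list, with positions counted from 1 at the left end.
Fam159b, intron, Nan-KLF1: cccAgccc
Fam159b, distal, Nan-KLF1: cccAgccc
Klhl30, promoter, Nan-KLF1: cccAgccc
Pdzk1ip1, distal, Nan-KLF1: cccAgccc
Gng2, promoter, Nan-KLF1: ccccAccc
Foxh1, promoter, Nan-KLF1: ccccTccc
Fam159b, coding exon, KLF1: cccTgccc
Gng2, intron, KLF1: cccTgccc
Pdzk1ip1, distal, KLF1: cccAgccc
The substitution C4A stood in 4 of the 7 Nan-KLF1 peaks labelled with a steep gene. That motif is the central motif of 11.2% of the 2758 Nan-KLF1 peaks and of 4.11% of the 5326 KLF1 peaks. The Gng2 and Foxh1 promoter motifs keep the base at position 4 and differ by G5A and G5T. Both Foxh1 peaks downstream of the gene, 1 in each list, have no central motif. The KLF1 peaks at Fam159b and Gng2 carry C4T, so 3 of the 4 KLF1 peaks labelled with a steep gene also have A or T at position 4, a form found in 15.6% of all KLF1 peaks and 33.9% of all Nan-KLF1 peaks. None of these 4 KLF1 peaks has the C at position 4 that 63.2% of the KLF1 list has.

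Levels in liver come first, by the role of each gene. Of the 3 membrane proteins, Fam159b, a Shisa-like transmembrane protein named Shisal2b in RefSeq (mm9 chromosome 13, 105635363 to 105653973), went, in the authors' deposited table, from a listed 0 in wild type to 75.5 FPKM in Nan/+ livers. It is the gene with the steepest rise of the table, and no fold is given against a level of 0. Slco2b1, a transporter that takes organic anions into cells (chromosome 7, 106806314 to 106859850), was at 0.390 FPKM in wild type and 19.5 FPKM in Nan/+, a 49.9-fold difference, in the authors' deposited table. Pdzk1ip1, a small membrane protein that binds the PDZ scaffold PDZK1 (chromosome 4, 114761313 to 114766499), had 13.2 FPKM in wild-type and 303.6 FPKM in Nan/+ livers, per the authors' deposited table. Its wild-type level lies above that of 56.7% of the genes in that table, so Pdzk1ip1 is not a silent gene in wild-type liver.

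The other 3 genes act in signalling, transcription and protein turnover. Gng2, a gamma subunit of heterotrimeric G proteins (chromosome 14, 20691781 to 20796471), was at 5.39 FPKM in wild type and 160.5 FPKM in Nan/+, 29.8-fold higher, in the authors' deposited table. Foxh1, the forkhead partner of SMAD proteins in Nodal and activin signalling (chromosome 15, 76498737 to 76500303), was at 2.60 FPKM and 63.0 FPKM, 24.2-fold higher, in the authors' deposited table. Klhl30, a kelch-like protein of a family that includes adaptors of ubiquitin ligases (chromosome 1, 93247650 to 93258981), was at 0.140 FPKM and 3.95 FPKM, 28.2-fold higher, in the authors' deposited table. Steepness and amount thus differed: in Nan/+ liver the order from the highest level was Pdzk1ip1, Gng2, Fam159b, Foxh1, Slco2b1 and Klhl30, and Klhl30 stayed under the table's median of 16.9 FPKM. Only group values were used here, so no spread between livers stands beside these levels and neighbours in that order could not be tested.

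**Figure D1:**
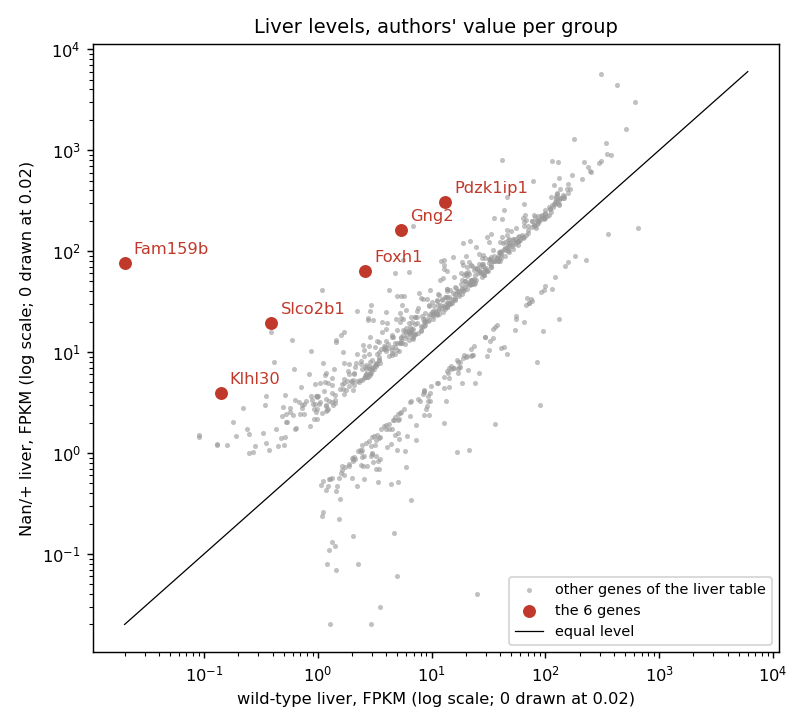
Level of each of the 793 genes of the liver table in wild type (x axis) and Nan/+ (y axis), in FPKM on log axes, with the 6 steep genes in red. The 6 lie along the upper left edge, from Klhl30 at 3.95 FPKM to Pdzk1ip1 at 303.6 FPKM in Nan/+, and the band without points around the line of equal level is where the table lists no gene.

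All 6 are called higher in the authors' comparison, as are 75.4% of the genes of that table; since this contrast chose them, nothing is read from the count. They are 6 of the 9 steepest rises, which also take in Hamp and Slc39a14. With near-silent set at no more than 1 FPKM in wild type, steep at a log2 fold change of at least 4 and a Nan/+ level of at least 1 FPKM, 6 genes pass, of which 3 (Fam159b, Slco2b1 and Klhl30) are steep genes of this set while Kifc2 and Insl6 also pass and are not in the set. Just inside lies Insl6, a relaxin family hormone, at 0.410 and 8.01 FPKM, and just outside lie the adaptor gene Skap1, at 0.0900 and 1.52 FPKM, and Hamp, the iron hormone hepcidin, at 1.08 and 41.5 FPKM, in the authors' deposited table. By distance over the 2 group values, on log2(FPKM + 0.1), Slc39a14, a zinc and iron transporter, was the gene most like both Gng2 (0.37 log2 units) and Pdzk1ip1 (1.21). Fam159b had no close match, its nearest gene being Slco2b1 at 3.01 log2 units.

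**Figure D2:**
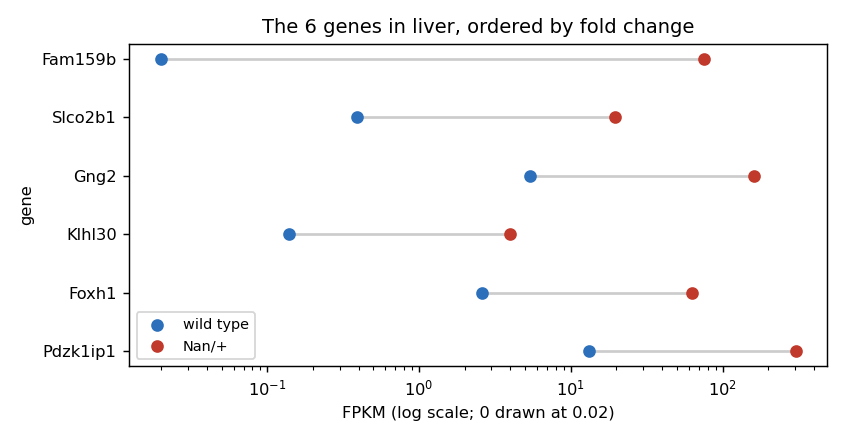
Wild-type (blue) and Nan/+ (red) levels in FPKM on a log axis for the 6 steep genes, ordered by fold change. Fam159b, listed at 0 in wild type, is drawn at 0.02, and the wild-type levels range from there to 13.2 FPKM for Pdzk1ip1.

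Other RNAs moved with the genotype in the same table. Of all its 793 genes, 598 (75.4%) were higher in Nan/+ and 195 were lower. All 9 granulocyte markers of the list were higher in Nan/+ (summed level 473 FPKM in wild type and 2798 FPKM in Nan/+), as were 3 of 10 macrophage marker names, aliases counted (65.7 and 154.7 FPKM), while 6 of 10 skeletal muscle markers were lower (43.5 and 1.75 FPKM), in the authors' deposited table. Of 6 mast cell markers 3 were higher (4.26 and 15.5 FPKM summed), and so was the platelet marker Pf4 (245 and 622 FPKM), in the authors' deposited table. None of the markers with a row is at 0 in wild type. No hepatocyte or endothelial marker (of 11 and 6) has a row, and the only erythroid marker with a row was Epb4.9, the membrane skeleton protein dematin, which was lower (84.8 and 7.98 FPKM), in the authors' deposited table; because the table lists changed genes only, it cannot be used to check the labelled tissue. Xist, expressed in female cells, was at 25.1 FPKM in wild-type and 0.0400 FPKM in Nan/+ livers per the authors' deposited table, and the sex of the embryos was not analysed here. The part of these shifts in the levels of the 6 steep genes was not tested. In whole liver, more cells of a type and more RNA per cell cannot be told apart.

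Nan-KLF1 peaks were assigned to 5 of the 6 steep genes, and at 3 of them, Gng2, Klhl30 and Foxh1, a peak was labelled promoter. Across the liver table, 15.5% of genes have a nearest-gene Nan-KLF1 peak and 5.17% have one labelled promoter. KLF1 peaks were assigned to 4 of the 6 (25.0% of the liver table), none of them labelled promoter (9.71% of the liver table). That label does not mean that KLF1 peaks were missing from the starts of these genes. The Gng2 KLF1 peak, labelled intron, had its summit 145 bp after the start of the locus and overlapped the Nan-KLF1 peak labelled promoter. The Fam159b KLF1 peak, labelled coding sequence, had its summit 357 bp after the start. Among the 7 other genes with a log2 fold change of at least 4 only Insl6 had a nearest-gene Nan-KLF1 peak, so of all 13 such genes 6 had one. For KLF1 the total was the same, 6 of 13. Of the 7 other genes 2, Insl6 and Ass1, had a KLF1 peak, each labelled promoter. The peaks come from K1 cells and not from liver, with 1 library per fusion, so these counts have no replicate check and were not tested. Fold enrichment over input is the authors' value for each peak.

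Klhl30 had the simplest pattern. Its single assigned peak was in the Nan-KLF1 list, 244 bp long (mm9 chr1:93247514-93247758), with its summit 14 bp before the start of the locus and the C4A motif. Its fold enrichment of 87.8 lay above 33.0% of the Nan-KLF1 list and under that list's median of 107.2. The KLF1 list had no peak that overlaps this Klhl30 peak. The neighbouring gene Fam132b, which encodes the iron-regulating hormone erythroferrone and lies 4.03 kb from Klhl30, differed from it: Fam132b had an intronic KLF1 peak (fold enrichment 103.6, motif ccAcAccc, which is C3A and G5A) and no Nan-KLF1 peak. Fam132b was lower in Nan/+ liver, at 4.99 FPKM in wild type against 1.06 FPKM in Nan/+, per the authors' deposited table. In 4sU RNA of the authors' deposited table Fam132b was at 7.18 FPKM in K1, 22.1 FPKM in K1-ER (q = 0.00535) and 5.14 FPKM in K1-NanER (q = 0.628). On the other side, 28.9 kb from Klhl30, a Nan-KLF1 peak at the Espnl promoter had a fold enrichment of 311.9 and again C4A.

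Foxh1 had 2 assigned Nan-KLF1 peaks and 1 KLF1 peak. The promoter peak (chr15:76499987-76500712) was in the Nan-KLF1 list alone, with a fold enrichment of 139 and its summit 21 bp before the start of the locus. The downstream peak was in both lists, with summits 24 bp apart and fold enrichments of 76.6 for Nan-KLF1 and 69.1 for KLF1; both intervals lie inside the locus of the adjoining gene Kifc2, a kinesin, whose end is 110 bp from that of Foxh1. Within 100 kb of Foxh1 there were 7 Nan-KLF1 and 8 KLF1 peaks, the most of any of the 6 steep genes, among them a Nan-KLF1 peak at the Ppp1r16a promoter 1.5 kb away (fold enrichment 303.3; 40.9 in the KLF1 list). Kifc2 itself was at 0.590 FPKM in wild-type and 13.0 FPKM in Nan/+ liver in the authors' deposited table. How the authors' counting split reads between genes this close is not given in the sources used here.

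At Gng2 and Pdzk1ip1 both factors had a peak at the same place. The Gng2 peaks, chr14:20796042-20796753 for Nan-KLF1 and chr14:20795785-20796841 for KLF1, lie over the start of the locus with summits 72 bp apart. Their fold enrichments were 185.2, above 81.1% of the Nan-KLF1 list, and 103.6, above 66.1% of the KLF1 list. RefSeq also lists a pseudogene, Gng2-ps1, and how reads common to both were assigned is not given in the sources used here. At Pdzk1ip1 the peaks, chr4:114768072-114768720 for Nan-KLF1 and chr4:114767905-114769224 for KLF1, lie past the end of the gene, 1.57 and 1.41 kb from it, with summits 78 bp apart and the same C4A motif. These were the most enriched peaks of the set: 331.4 for Nan-KLF1, above 96.0% of its list, and 225.5 for KLF1, above 91.5%. The authors' own intersection of the lists takes in nearest summits no more than 50 bp apart and so lists neither pair as shared, although both pairs overlap. By that rule 761 of all 2758 Nan-KLF1 peaks are shared, and 1 of the 7 assigned to the steep genes. Not being shared by that rule is thus the usual case and no trait of these genes. It does not mean that no KLF1 peak overlaps, as the Gng2 and Pdzk1ip1 pairs show.

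The peaks of Fam159b had low fold enrichment and lay at separate places. The Nan-KLF1 peaks lay in an intron, 14.2 kb after the start of the locus (fold enrichment 62.7), and 19.8 kb before the start (36.6), above 10.9% and 1.60% of the list. The KLF1 peak was in coding sequence 357 bp after the start, with a fold enrichment of 41.2, above 12.8% of its list, and overlapped neither Nan-KLF1 peak. Slco2b1 had no peak under its name in either list. By position, 2 Nan-KLF1 peaks assigned to Gm4980 lay 15.3 and 16.1 kb past its end, both with cccTgccc (C4T), and a KLF1 peak without a central motif overlapped the nearer of them. All 6 steep genes had a peak of each list within 100 kb, where 53.6% of liver table loci have a Nan-KLF1 peak and 65.7% a KLF1 peak.

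**Figure D3:**
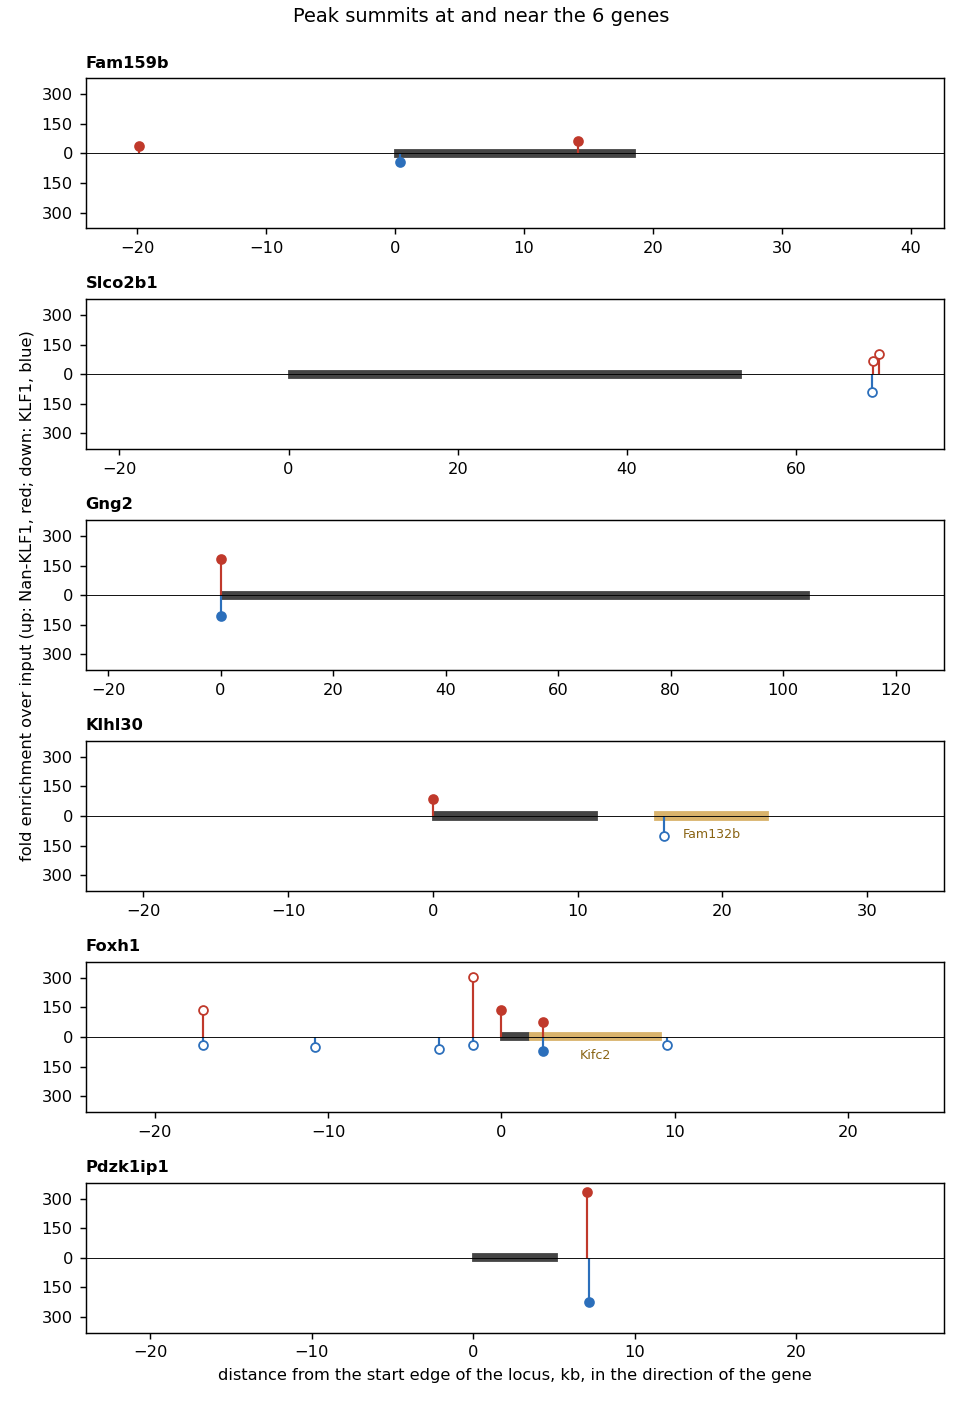
Peak summits (Nan-KLF1 upwards in red, KLF1 downwards in blue; height is fold enrichment over input) by distance in kb from the start edge of each of the 6 loci (dark bars), with neighbouring genes of the expression tables in amber. Filled points are peaks assigned to the gene named above the panel and open points are peaks assigned to other genes. Only a Nan-KLF1 peak lies over the start edges of Klhl30 and Foxh1, while both factors have a peak at the start of Gng2 and past the end of Pdzk1ip1. The KLF1 summits nearest the Foxh1 start edge lie 1.66 kb before it and 2.39 kb after it.

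**Figure D4:**
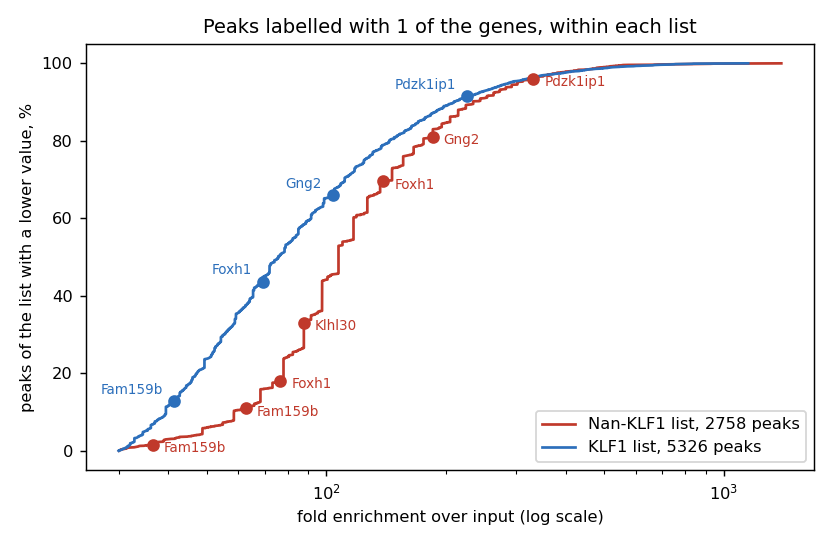
Fold enrichment (log x axis) of the 7 Nan-KLF1 and 4 KLF1 peaks assigned to the steep genes, as points on the cumulative curve of each full list (y axis, percentage of the list with a lower value). Pdzk1ip1 and Gng2 are the highest points on both curves and Fam159b the lowest.

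New transcription in the cell lines was listed for only 2 of the 6 steep genes, Foxh1 and Pdzk1ip1; the 4sU table holds 1556 genes called in at least 1 comparison, so the other 4 have no value here. Of the 13 erythroid markers 7 have a row there; all 7 were called higher in K1-ER and 4 in K1-NanER. Klf1 itself was not analysed here. Foxh1 was called in K1-NanER and Pdzk1ip1 in both lines. Across that table, 47.4% of genes are called higher in K1-NanER and 37.9% in K1-ER, and 28.3% and 11.5% lower. Foxh1 was not silent in K1 cells: it was at 74.7 FPKM in K1, 100.6 FPKM in K1-ER (log2 fold change 0.43, q = 0.523) and 236 FPKM in K1-NanER (log2 fold change 1.66, q = 0.00213) in the authors' deposited table. Kifc2 beside it was at 15.5, 25.4 and 131 FPKM, with q = 0.224 in K1-ER and q = 0.00213 in K1-NanER, per the authors' deposited table. The line with Nan-KLF1 was the highest of the 3 for both neighbours.

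Pdzk1ip1 differed from Foxh1. It stood at 0.1 FPKM in K1, at 6.46 FPKM in K1-ER and at 5.46 FPKM in K1-NanER, with q = 0.00213 in both, per the authors' deposited table. Ahsp, Epb4.9 and Hba-x are listed at the same 0.1 FPKM in K1. Whether 0.1 stands for 0 or for any low level is not given in the sources used here. Both fusions thus went with more Pdzk1ip1 RNA than the 0.1 FPKM listed for K1, and both had the peak downstream of the gene. The 2 comparisons use the same K1 samples, and K1-ER was not tested against K1-NanER, so a difference between the lines was not tested for Foxh1, Kifc2, Fam132b or Pdzk1ip1. Clones were compared with parental cells, so differences between clones are part of each value.

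**Figure D5:**
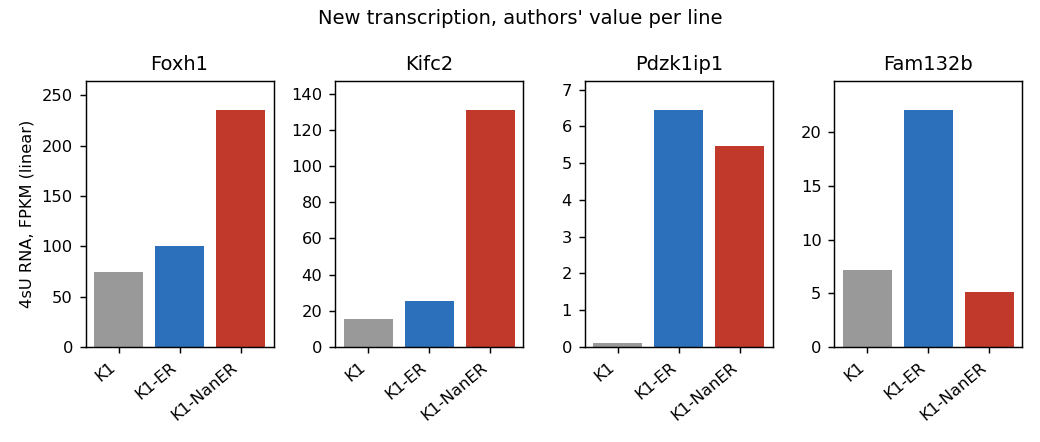
Level of 4sU-labelled RNA in K1, K1-ER and K1-NanER (bars from 0, FPKM, authors' group values without error) for the steep genes Foxh1 and Pdzk1ip1 and the neighbours Kifc2 and Fam132b. Foxh1 and Kifc2 are highest in K1-NanER at 236 and 131 FPKM, Fam132b is highest in K1-ER at 22.1 FPKM, and Pdzk1ip1 is at 6.46 and 5.46 FPKM in the 2 induced lines.

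Relatives of the steep genes were mostly not listed as changed. Of 15 SLCO organic anion transporters and 39 kelch-like gene names, aliases counted, only Slco2b1 and Klhl30 have a row in the liver table. Of 32 G protein subunit genes Gng2 and Gng11, at 17.5 and 37.3 FPKM, were higher in Nan/+, and of 10 Shisa genes Fam159b and Shisa5, at 12.8 and 81.8 FPKM, in the authors' deposited table. Of 27 genes of Nodal and activin signalling Foxh1 and the ligand Gdf3, at 4.94 and 12.4 FPKM, were higher, in the authors' deposited table; all of these rows were called higher, beside 75.4% of the table. Of 12 genes around the PDZK1 scaffold Pdzk1ip1 alone has a liver row; in 4sU RNA 5 have rows, of which 1 was called higher and 1 lower in K1-ER, and 3 higher and 2 lower in K1-NanER. Pdzk1ip1 itself is the 1 called higher in K1-ER and 1 of the 3 higher in K1-NanER. Of the kelch-like genes 3 have 4sU rows, none called in K1-ER, with Klhl23 and Klhl7 higher and Klhl35 lower in K1-NanER. Of the G protein subunits 2 have 4sU rows, Gnai2, higher in both lines, and Gna13, higher in K1-NanER. In 4sU RNA 6 genes of the Nodal and activin list have rows, of which 2 were called higher in K1-ER and 5 in K1-NanER, and none was called lower. Foxh1 itself is 1 of these 6 and 1 of the 5. Beside these list counts stand the shares over the whole 4sU table: in K1-ER 37.9% higher and 11.5% lower, and in K1-NanER 47.4% higher and 28.3% lower. Smad2, which FOXH1 binds, was at 2.68 FPKM in K1, 4.37 FPKM in K1-ER (q = 0.298) and 6.63 FPKM in K1-NanER (q = 0.0137) in the authors' deposited table. Smad4 was at 4.62 FPKM in K1, 6.72 FPKM in K1-ER (q = 0.566) and 11.9 FPKM in K1-NanER (q = 0.0301) in the authors' deposited table. Lefty1, an inhibitor of Nodal, was at 10.5 FPKM in K1, 49.1 FPKM in K1-ER (q = 0.00213) and 6.04 FPKM in K1-NanER (q = 0.409) in the authors' deposited table.

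Promoter sequence was at hand for 4 of the 6 genes (RefSeq, build GRCm38.p6), and the 250 bases before the start are shown for each. The genes share the rise in liver by which they were chosen, and control by a common element was not tested. Capitals mark matches, on either strand, to CCNCNCCC, which fixes C at position 4 and so takes in the motifs of the Gng2 and Foxh1 Nan-KLF1 promoter peaks above but none of those with C4A or C4T.
Gng2, chr14:19976694-19976943, minus strand: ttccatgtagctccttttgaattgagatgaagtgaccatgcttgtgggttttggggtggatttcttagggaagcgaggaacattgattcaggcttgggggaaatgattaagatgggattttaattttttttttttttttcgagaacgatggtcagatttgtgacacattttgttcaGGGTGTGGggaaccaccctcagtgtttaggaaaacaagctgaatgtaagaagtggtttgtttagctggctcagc
Pdzk1ip1, chr4:115088458-115088707, plus strand: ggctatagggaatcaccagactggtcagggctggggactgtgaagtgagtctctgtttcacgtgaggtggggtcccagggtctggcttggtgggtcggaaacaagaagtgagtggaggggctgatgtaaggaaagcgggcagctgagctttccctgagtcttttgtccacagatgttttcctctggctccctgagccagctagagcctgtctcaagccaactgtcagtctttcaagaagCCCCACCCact
Slco2b1, the first of 3 windows, chr7:99711341-99711590, minus strand: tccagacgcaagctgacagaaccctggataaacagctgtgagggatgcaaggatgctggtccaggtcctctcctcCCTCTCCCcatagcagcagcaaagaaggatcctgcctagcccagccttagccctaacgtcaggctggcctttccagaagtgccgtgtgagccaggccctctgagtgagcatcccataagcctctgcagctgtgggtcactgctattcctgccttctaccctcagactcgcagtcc
Fam159b, chr13:104863894-104864143, minus strand: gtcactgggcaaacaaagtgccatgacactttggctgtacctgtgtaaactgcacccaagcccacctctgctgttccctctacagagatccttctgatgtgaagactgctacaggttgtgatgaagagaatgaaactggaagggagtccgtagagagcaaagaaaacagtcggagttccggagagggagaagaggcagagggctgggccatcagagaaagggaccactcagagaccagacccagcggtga
Gng2 has 1 match, on the opposite strand and beginning 74 bases before the start, which reads CCACACCC. Pdzk1ip1 has 1 match that begins 11 bases before the start, and Slco2b1 has 1 in this window, 175 bases before it, and 0 in each of its other windows. The letters CCNCNCCC do not occur in the Fam159b window. The form CCCNGCCC, which takes in C4A and C4T and was searched after the data were seen, occurs 1 time in the Fam159b window and 1 time in that of Pdzk1ip1, not in those of Gng2 or Slco2b1, and stands in 24.2% of all windows. The shorter CACCC, which overlaps some of these matches, occurs in the windows of Fam159b, Gng2 and Pdzk1ip1 and in 52.0% of all windows. A match to CCNCNCCC stands in 45.9% of the 32851 RefSeq windows of this length, and CCACACCC, which CCNCNCCC includes, in 3.20%, so a match to the broad motif is common. The peak positions are on mm9 and were not placed on these windows. The Pdzk1ip1 peaks lie 7.07 and 7.15 kb from the start of that gene, well outside such a window.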

How the data were processed

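The 6 genes and all gene lists were chosen with earlier results of these data known. The files used were 2 expression tables and 2 peak lists. The authors deposited expression as FPKM, 1 value per group, and log2 fold changes, p-values and q-values are those of the authors' deposited tables. Per the submitters' processing notes, TopHat2 2.0.10 and MACS 1.4.2 were used with build mm9; the program behind FPKM and q is not given in the sources used here. Peak ranks, a score within each list, the fold enrichment (the ratio over input) and other peak columns (motif, nearest gene, summit distance) are as deposited by the authors. A gene was called at q of at most 0.05. Without values per sample no model could be fitted, and depth is unknown, which leaves no interval for any value; nothing in the labels says whether livers of 1 group came from separate litters. Locus starts are printed 1 higher than deposited, since 4 of 6 loci then have the RefSeq length. The start edge of a locus came from the strand in RefSeq or, for Klhl30 and Foxh1, from the authors' promoter label. Peaks overlapped when they shared at least 1 bp. Low liver levels were raised to 0.1 FPKM before a log2 fold change was recomputed, which moved deposited values by at most 0.0662. Named genes were the 6, genes past or just outside the thresholds, their nearest match, genes within 300 kb and called relatives. All 6 matched RefSeq (GRCm38.p6; Fam159b by synonym). Overlap and motif code was tested on simulated data. Python 3.11.15 with pandas 2.3.3 was used. 1 other gene of the liver table is not reported here.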

Additional observations from a re-analysis of the deposited data

How the results depend on the processing

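The tables give 1 value per group, so no sample could be left out. No paired analysis was possible because the columns carry no replicate numbers. The median log2 fold change of the 6 genes in liver was 4.86 with levels under 0.1 FPKM raised to 0.1 or under 0.01 raised to 0.01, and 4.29 with 1 FPKM added to both groups. The value of Fam159b, at 0 in wild type, depends on that choice and is no estimate. Genes past the near-silent and steep thresholds numbered 6, and 16 or 38 with the log2 limit at 3 or 2; the other limits gave 5 to 7, and 3 of the 6 genes passed except with at least 5 FPKM asked of Nan/+, which left 2. Calls in 4sU RNA (1 in K1-ER and 2 in K1-NanER) were the same at q of 0.01 and 0.1. With only peaks at or above the median fold enrichment of their list, 3 genes in place of 5 had a Nan-KLF1 peak and 2 in place of 4 a KLF1 peak. The share of all liver table genes under that limit is not given here. A peak within 10 kb was found for 5 genes in each list, where 20.9% of liver table loci have a Nan-KLF1 peak and 33.4% a KLF1 peak. The 3 Nan-KLF1 peaks that overlap a KLF1 peak stayed 3 under both stricter overlaps. The share of the whole Nan-KLF1 list under these overlap rules is not given here. Promoter matches were found for 3 genes with CCNCNCCC and 3 with CACCC (Fam159b in place of Slco2b1), 1 with CCACACCC and 0 with CCCGCCCC, and 2 with CCCNGCCC, chosen after seeing the data. Depth is unknown, so a missing peak or row is no evidence of absence.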

Other observations

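Genes around Foxh1 had many rows in the 4sU table. Within 300 kb of it 6 genes are listed, of which 5 were called higher in K1-ER and 3 in K1-NanER, and none lower; of all genes with a 4sU row 37.9% and 47.4% are called higher and 11.5% and 28.3% lower. Gpt, the alanine aminotransferase gene, was at 2.74 FPKM in K1, 11.7 FPKM in K1-ER (q = 0.0487) and 17.5 FPKM in K1-NanER (q = 0.0147) in the authors' deposited table, and 3 Nan-KLF1 peaks were assigned to it, the most enriched at 477.6. Kcnk5, a potassium channel gene within 300 kb of Gng2, was at 11 FPKM in K1, 63.9 FPKM in K1-ER (q = 0.00213) and 23.6 FPKM in K1-NanER (q = 0.0372) in the authors' deposited table.

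Near Slco2b1, the sialidase gene Neu3 was at 6.30 FPKM in K1, 15.5 FPKM in K1-ER (q = 0.0213) and 7.53 FPKM in K1-NanER (q = 0.822) in the authors' deposited table. The kelch-like gene Klhl35, 183.8 kb from Slco2b1, was at 10.1 FPKM in K1, 4.88 FPKM in K1-ER (q = 0.210) and 2.53 FPKM in K1-NanER (q = 0.0429), in the authors' deposited table. Near Klhl30, Scly, the selenocysteine lyase gene, was at 21.5 FPKM in K1, 13.1 FPKM in K1-ER (q = 0.285) and 8.41 FPKM in K1-NanER (q = 0.0263) in the authors' deposited table, and Ramp1, a receptor activity-modifying protein gene, was at 1.97 FPKM in wild-type and 5.21 FPKM in Nan/+ liver in the authors' deposited table. Tal1, an erythroid transcription factor gene beside Pdzk1ip1, was not analysed here for expression, and the KLF1 peak assigned to it, 31.5 kb from Pdzk1ip1 with a fold enrichment of 210.2 and motif ccccAccc, overlaps no Nan-KLF1 peak.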
